A study of Selaginella kraussiana with 4 samples.

Results

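A set of 479 regions of the draft genome of *Selaginella kraussiana*, a creeping lycophyte, was listed at a higher transcript level in microphylls and stems than in shoot tips and rhizophore tips. They were found among 26055 regions of at least 300 bp and 31210 regions in all. RNA of the 4 tissues was sequenced as 1 library per tissue, so the differences lack replicates, carry no p-values and hold for these libraries only. The labels call the libraries leaf, stem, seedling and rhizophore and describe 1 light and temperature regime for all of them, with no genotype, treatment or age. The names microphyll, shoot tip and rhizophore tip are those of the study for the leaf, the seedling and the rhizophore library. The match of seedling to shoot tip was made by elimination. Whether the seedling or the rhizophore library held more than tips was not tested. The tables pair no locus with a gene name, so marker genes of the tissues could not be looked up and nothing is said of what the loci encode. A locus is called here by the number of its contig in the assembly of the authors, with its first and last base counted from 1.

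Lycophytes bear microphylls, small leaves with a single unbranched vein that carry out photosynthesis. The stem holds the vascular strands that connect the leaves with the rhizophores, leafless axes that grow from branch points and bear the roots. Both tissues are made up largely of cells that have left the cell cycle, while the shoot tip and the rhizophore tip hold the apical cells and the dividing tissue from which new organs form. In RNA from whole tissues, fewer cells of a type and less RNA per cell cannot be told apart.

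The level of a locus is its FPKM, fragments per kilobase per 1000000 fragments, with a lower and an upper bound from the Cufflinks run of the authors. The bounds are read as a 95% interval that covers error within a library and not variation between plants. Union loci were made by joining the loci of the 4 tables wherever they shared 1 bp or more, and over each of them the FPKM of each library was summed. A library without a locus there was set to 0, which says that no transcript was assembled, and reads may still have been present. The members were chosen by these same values. On the scale of log2(FPKM + 1), the lower of microphyll and stem had to lie at least 1 above the higher of the tips, and microphyll and stem had to lie within 1 of each other. Differences between the 2 pairs of tissues therefore describe what was selected and are not findings. The rule took 1.84% of the loci of at least 300 bp, and without the balance of microphyll and stem it would have taken 659 loci or 2.53%.

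The interval widths implied library totals from 47.2 M to 58.2 M fragments (M, 1000000), and all listed loci had the status OK. Over the 18635 loci of at least 300 bp listed in all 4 libraries, the median log2(FPKM + 1) was 4.00 in microphylls, 4.06 in stems, 4.13 in shoot tips and 4.17 in rhizophore tips. The number of members depended on the scaling. After each FPKM was divided by the sum of its library (TPM), the rule gave 1318 loci raised in microphyll and stem and 185 raised in both tips, against 479 and 898 in FPKM. The summed FPKM of the libraries, relative to their geometric mean on the log2 scale, was -0.41 in microphylls and -0.60 in stems, against 0.38 in shoot tips and 0.63 in rhizophore tips. With the sum taken over loci of at least 300 bp only, a choice made after seeing the data, the numbers were 432 and 904.

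The members spanned 4 orders of magnitude in level, so the set was not one of abundant transcripts only. Their FPKM had a median of 16.0 in microphylls (1.05 to 25767) and 15.5 in stems (1.01 to 22049), against 2.81 in shoot tips (0 to 7692) and 1.98 in rhizophore tips (0 to 2002). All 26055 loci had medians of 7.14 in microphylls and 7.77 in stems, against 8.67 in shoot tips and 8.79 in rhizophore tips. By the lower of their microphyll and stem values, 84 members reached an FPKM of 100 (17.5%, against 4.72% of all loci of at least 300 bp) and 180 lay from 10 to 100 (37.6%, against 32.6%). A further 150 lay from 2 to 10 (31.3%, against 26.4%) and 65 under 2 (13.6%, against 36.3%), where the rule itself requires an FPKM of at least 1 in both tissues. The rule uses this same lower value, so members lie higher on it by selection. Nothing is therefore read from these shares or from the medians beside those of all loci. Together the members held 5.88% of the summed FPKM of loci of at least 300 bp in microphylls and 5.18% in stems, against 1.44% in shoot tips and 0.869% in rhizophore tips.

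**Figure D1:**
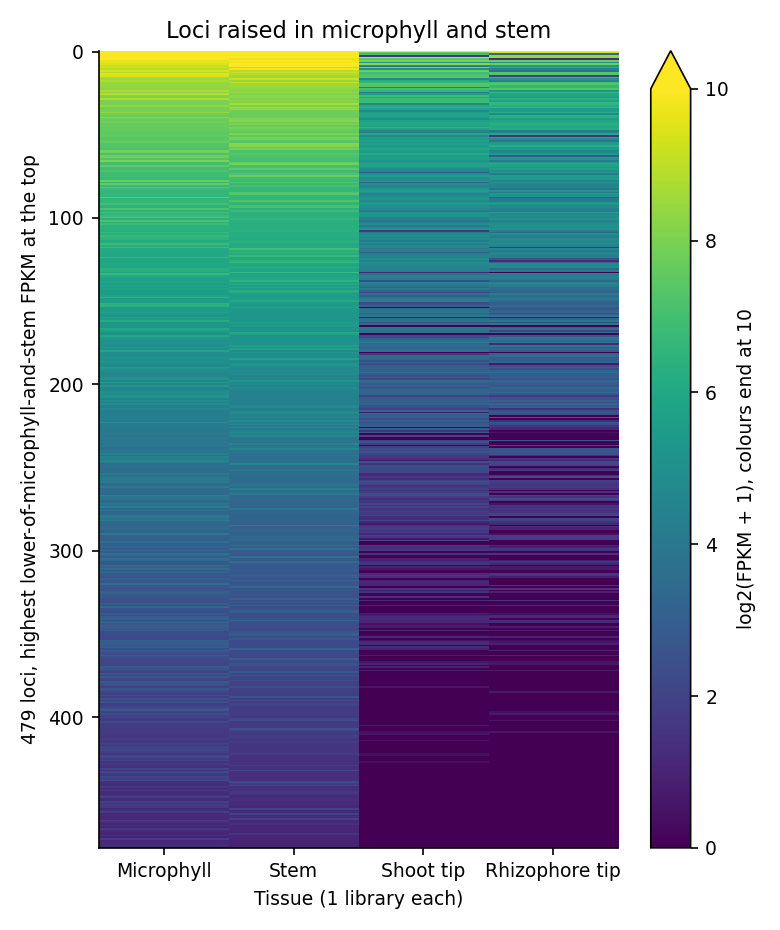
Level of each of the 479 members (from the highest at the top to the lowest, by the lower of microphyll and stem) in the 4 libraries, as log2(FPKM + 1) in colour. Towards the bottom, where microphyll and stem values are low, both tip columns are dark because 132 members were listed in neither tip.

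Locus 063554 (2054 to 2573) stood far above the other members. Its FPKM was 25767 (interval 24700 to 26835) in microphylls and 22049 (21133 to 22964) in stems, against 7692 (7370 to 8014) in shoot tips and 2002 (1913 to 2091) in rhizophore tips. Among loci of at least 300 bp it ranked 1 in microphylls and 2 in stems, against 6 in shoot tips and 38 in rhizophore tips, so it was abundant in every tissue. Alone it made up 2.33% of the summed FPKM of such loci in microphylls and 1.84% in stems, against 0.679% in shoot tips and 0.175% in rhizophore tips. Without it, the other 478 members held 3.55% in microphylls and 3.34% in stems, against 0.759% in shoot tips and 0.694% in rhizophore tips. The libraries covered between 448 and 485 bp of its span, so a similar stretch was measured in each. The other locus on the contig, 1 to 1563, did not share the pattern, with an FPKM of 0.815 in microphylls and 0.871 in stems, against 2.08 in shoot tips and no listing in rhizophore tips.

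The next members by level differed in the order of the tips. Locus 042923 (67 to 6132) had an FPKM of 1566 in microphylls and 1913 in stems, against 203 in shoot tips and 614 in rhizophore tips, so that here the rhizophore tip was 3.03 times the shoot tip. It merged 5 loci of the microphyll table and 3 of the stem table, against 2 in each tip table, and may hold more than 1 gene. In locus 042601 (6211 to 6687) the shoot tip was the higher tip. Its FPKM was 1343 (1324 to 1362) in microphylls and 1244 (1224 to 1264) in stems, against 572 (560 to 585) in shoot tips and 357 (346 to 368) in rhizophore tips. All 4 intervals of this locus lay apart, while the stem was only 2.17 times the shoot tip.

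Locus 055299 (676 to 1301) had the widest gap between the tips of any member in the direction of the shoot tip. Its FPKM was 1143 (1129 to 1157) in microphylls and 823 (810 to 836) in stems, against 179 (170 to 189) in shoot tips and 1.40 (0.654 to 2.15) in rhizophore tips. The shoot tip was 128 times the rhizophore tip, where the value rested on about 14 fragments, and the stem was 4.59 times the shoot tip. All 4 intervals lay apart, and the microphyll was 1.39 times the stem.

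Locus 105017 (70 to 457) was among the 6 highest members by FPKM, and its libraries covered unequal spans. The FPKM was 2316 in microphylls and 1317 in stems, against 2.18 in shoot tips and 340 in rhizophore tips. The span covered was 105 bp in microphylls and 107 bp in stems, against 388 bp in shoot tips and 111 bp in rhizophore tips. The intervals implied 58.6 fragments in microphylls and 22.8 in stems, against 23.7 in shoot tips and 11 in rhizophore tips. Stem and shoot tip thus rested on close numbers of fragments, and FPKM divides by a length that becomes small in a locus shorter than a fragment. In 61 members (12.7%) at least 1 listing library covered under 300 bp, against 6.11% of all loci of at least 300 bp. Leaving these members out, a choice made after seeing the data, kept 418.

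**Figure D2:**
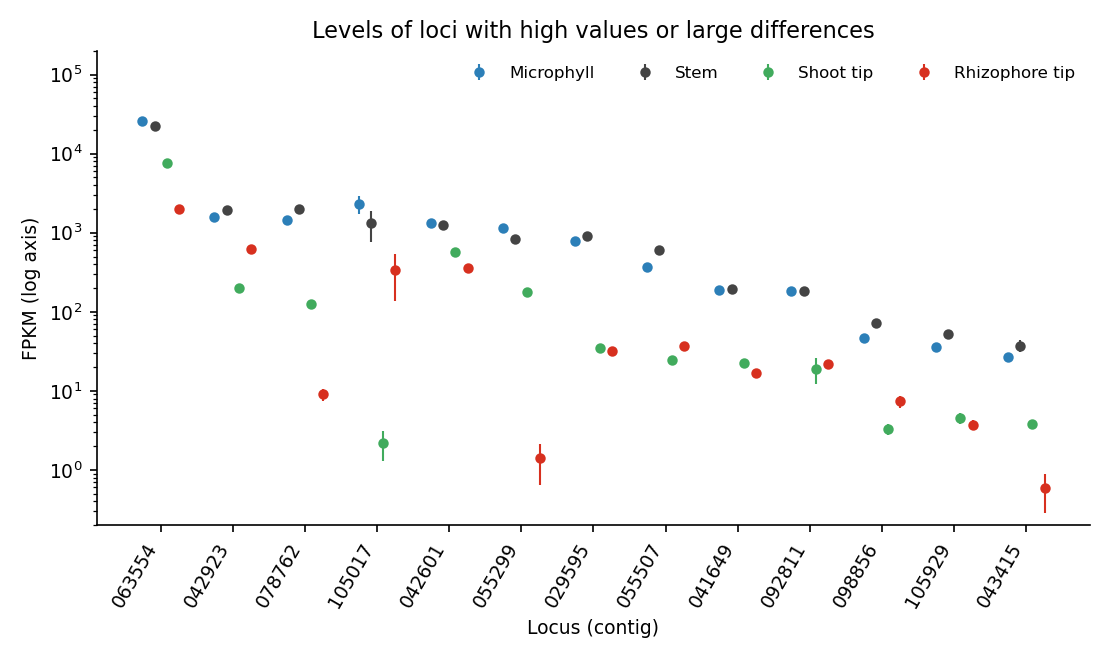
FPKM (log axis) of 13 members with high levels or large differences in microphylls, stems, shoot tips and rhizophore tips (1 library each), with the interval of each value as a bar. Microphyll and stem points lie close together in each locus, while the tips overlap in some (029595) and lie 128-fold apart with the shoot tip higher in 055299 and 156-fold apart with the rhizophore tip higher in 105017, whose wide bars go with short covered spans.

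The difference between the lower of microphyll and stem and the higher of the tips had a median of 1.46 on the log2(FPKM + 1) scale, and it reached 2 in 90 members and 3 in 15. The 2 largest differences belonged to loci listed in neither tip. Locus 098223 (1 to 1352) had an FPKM of 35.4 (33.4 to 37.5) in microphylls and 43.8 (41.5 to 46.1) in stems, a difference of 5.19. Locus 066853 (1 to 437) had 33.5 (30.3 to 36.7) in microphylls and 54.04 (49.5 to 58.5) in stems, a difference of 5.11. Each was the only locus on its contig and was covered almost whole in microphylls and stems. A missing locus can still hold some reads, since 11 fragments was the least at which loci were regularly listed in every library. For 098223, 11 fragments would equal an FPKM of 0.313 in shoot tips and 0.365 in rhizophore tips, and for 066853 they would equal 0.836 in shoot tips and 0.974 in rhizophore tips. The lower of microphyll and stem was 97.1 times the higher of these floor values for 098223 and 34.4 times for 066853.

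The 3 differences next in size came with unequal or short spans. Locus 058551 (314 to 709) had an FPKM of 29.2 in microphylls over 396 bp and 36.9 (15.5 to 58.2) in stems over 149 bp, and was listed in neither tip. Its stem value rested on 11.9 fragments. Over such a stretch, 11 fragments would equal 27.6 in shoot tips and 32.1 in rhizophore tips, so a lower level in the tips could not be shown. Locus 062200 (277 to 672) had 56.3 in microphylls and 105 in stems over 139 bp in each, against 1.15 over 396 bp in shoot tips and no listing in rhizophore tips. It rested on 18.0 fragments in microphylls and 21.5 in stems, against 12.4 in shoot tips, which is closer than the FPKM values. Locus 068472 (133 to 1131) had 55.1 in microphylls and 37.4 in stems over 228 and 215 bp, against 0.606 in shoot tips and 0.650 in rhizophore tips over 999 and 997 bp. Its stem interval implied 16.0 fragments, fewer than the 25.8 in shoot tips and 23.7 in rhizophore tips.

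Other members had large differences over long spans in every library. Locus 029595 (1 to 1206) had an FPKM of 792 (769 to 815) in microphylls and 916 (906 to 925) in stems, against 34.4 (30.03 to 38.7) in shoot tips and 32.1 (28.7 to 35.6) in rhizophore tips. The microphyll was 23.0 times the shoot tip, the intervals of the tips overlapped, and the covered spans ran from 657 to 1203 bp. Locus 078762 (1 to 2008) had 1463 in microphylls and 2024 in stems, against 124 in shoot tips and 9.02 in rhizophore tips. Here the microphyll was 11.8 times the shoot tip, which was itself 13.8 times the rhizophore tip. The spans were 2008 bp in microphylls and 2003 bp in stems, against 645 bp in shoot tips and 596 bp in rhizophore tips. Locus 078762 summed 2 loci in microphylls and 2 in stems, against 1 in each tip.

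The loci in the next sentences were picked after their values were seen, as the members with the largest differences among those listed in all 4 libraries over at least 300 bp. Locus 055507 (1 to 993) had 365 (359 to 371) in microphylls and 605 (597 to 613) in stems, against 24.6 (23.1 to 26.0) in shoot tips and 36.5 (34.6 to 38.5) in rhizophore tips. Its spans were nearly equal, from 985 to 993 bp, and the microphyll was 9.99 times the rhizophore tip. Locus 041649 (48 to 3393) had 189.7 (182.8 to 196.7) in microphylls and 196 (186 to 207) in stems, against 22.4 (20.9 to 23.8) in shoot tips and 17.0 (15.9 to 18.1) in rhizophore tips. Its microphyll and stem intervals overlapped, and those of the tips did not. The spans were longer in microphylls (3060 bp) and stems (2753 bp) than in shoot tips (1513 bp) and rhizophore tips (1420 bp). Locus 041649 summed 2 loci in microphylls and 3 in stems, against 1 in each tip. Locus 092811 (103 to 1195) had 184.5 (176 to 193) in microphylls and 184.4 (177 to 192) in stems, against 19.0 (12.1 to 25.9) in shoot tips and 22.1 (20.1 to 24.1) in rhizophore tips. In this locus the values overlapped within both pairs of tissues, and the pairs lay 8.36-fold apart.

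The last 3 of this choice had lower levels. Locus 105929 (640 to 3492) had 36.1 in microphylls and 52.2 in stems, against 4.56 in shoot tips and 3.73 in rhizophore tips. Locus 098856 (1831 to 3392) had 46.9 in microphylls and 72.6 in stems, against 3.25 in shoot tips and 7.37 in rhizophore tips. Locus 043415 (39 to 1552) had 26.6 in microphylls and 37.3 in stems, against 3.82 in shoot tips and 0.586 in rhizophore tips. The tips thus stood in either order in loci of like microphyll and stem level.

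**Figure D3:**
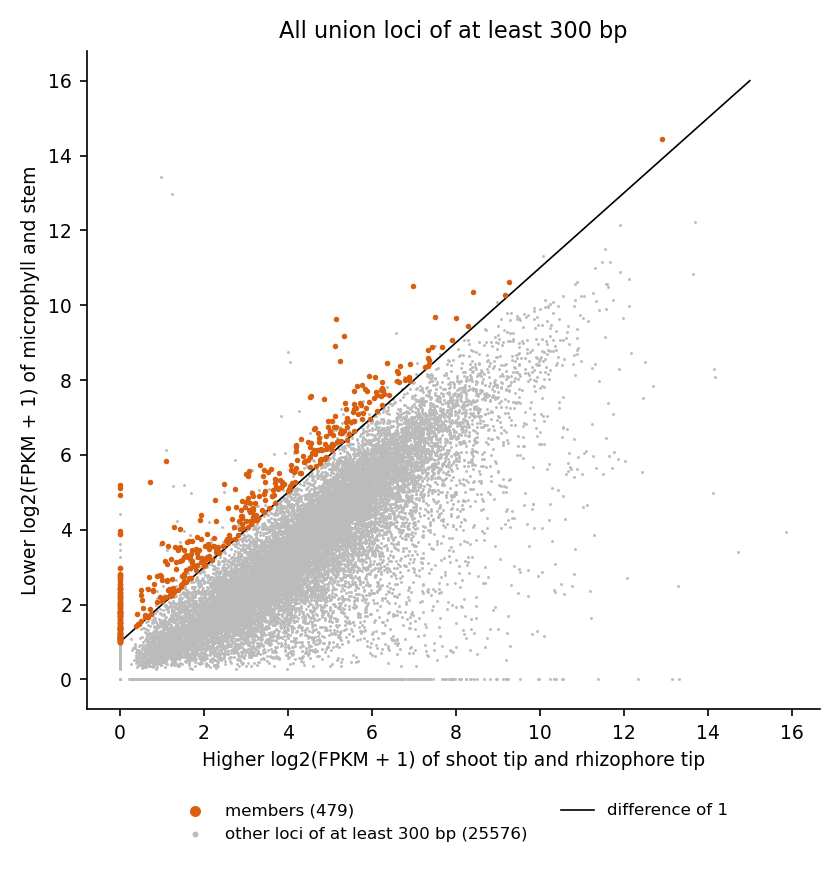
Lower log2(FPKM + 1) of microphyll and stem (y axis) against the higher of shoot tip and rhizophore tip (x axis) for all 26055 loci of at least 300 bp, with the 479 members in orange and a line at a difference of 1. Grey points above the line are the 180 loci in which microphyll and stem differed by over 1, and 389 members lie at a difference under 2.

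Many members lay near the limit of the rule, with a lower quartile of the difference of 1.19. Just inside it, locus 020609 (319 to 2675) had 121 in microphylls and 83.4 in stems, against 33.1 in shoot tips and 41.2 in rhizophore tips. Also just inside, locus 063296 (7 to 2132) had 2.17 in microphylls and 2.32 in stems, against 0.374 in shoot tips and 0.583 in rhizophore tips. The pseudocount of 1 narrows the differences of low loci, so the same log2 difference of 1.00 stood for 2.02-fold in 020609 and 3.72-fold in 063296. Just outside, locus 044467 (2017 to 6474) had 66.7 in microphylls and 80.3 in stems, against 32.9 in shoot tips and 31.3 in rhizophore tips. The other locus just outside, 105819 (987 to 5675), had 116 in microphylls and 139 in stems, against 57.6 in shoot tips and 24.1 in rhizophore tips. Loci on either side of the limit thus differed little.

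The intervals of both microphyll and stem lay wholly above those of both tips in 463 of the 479 members, where a library without a locus counted as 0. This held for 7.22% of all loci of at least 300 bp. The members were chosen on the same values, so nothing is read from the share. Among the 299 members listed in all 4 libraries, the number was 287.

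Besides these 299 members, 40 were missing in rhizophore tips only (8.35%, against 7.41% of all loci of at least 300 bp), 8 were missing in shoot tips only (1.67%, against 6.11%), and 132 were listed in neither tip (27.6%). Over all loci of at least 300 bp, 297 (1.14%) were listed in microphyll and stem and neither tip. The 132 members among them were low and short. The lower of their microphyll and stem values had a median FPKM of 2.19 and a maximum of 35.4, and their median length was 431.5 bp, with 94 under 600 bp. The members listed in all 4 libraries had a median lower FPKM of 44.4 and a median length of 1387 bp. Members or not, the 297 loci had a median length of 564 bp, and loci of at least 300 bp listed in all 4 libraries 1318 bp. With 11 fragments in place of each missing value, 21 of the 132 still met the rule. In the other 111 a difference of this size could not be shown, since a missing value may stand for reads. In 28 of the 132 the lower of microphyll and stem itself lay below the floor. The floor is an estimate from the interval widths, and some loci were listed on fewer fragments. How many reads an unlisted region can hold was not tested. Over all members, 354 met the rule with this floor.

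Unlisted members with many fragments lay above that floor. Besides 098223 and 066853 they included locus 097411 (4448 to 7597), with an FPKM of 3.49 (3.17 to 3.81) in microphylls and 7.14 (6.66 to 7.62) in stems. It rested on 466 fragments in microphylls and 892 in stems, and 11 fragments would equal an FPKM of only 0.0759 in shoot tips and 0.0883 in rhizophore tips. Locus 079696 (1 to 743) had 14.5 (12.8 to 16.2) in microphylls and 18.2 (16.2 to 20.2) in stems, with floor values of 0.511 in shoot tips and 0.595 in rhizophore tips. For both loci the microphyll and stem intervals lay well above these floor values. The floor comes from listed loci, so it does not bound the reads that an unlisted region can hold.

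The rule used only the higher of the tips and set no order between them. The shoot tip was the higher in 198 members (41.3%) and the rhizophore tip in 149 (31.1%), against 44.5% and 48.3% of all loci of at least 300 bp. The other 132 members were listed in neither tip and had no order, which lowers both shares of the members. Both tips were listed in 299 members and in 20648 of all loci of at least 300 bp. Among these, the tips lay within 1 of each other in 251 members and 16123 of all loci. The shoot tip was higher by at least 1 in 32 members and 2113 of all loci. The rhizophore tip was higher by at least 1 in 16 members and 2412 of all loci. Locus 098093 (1 to 1432), picked after its values were seen, belonged to the 32 and had 60.3 in microphylls and 83.9 in stems, against 21.9 in shoot tips and 1.37 in rhizophore tips. Locus 096072 (454 to 1908), picked in the same way from the 16, had 289 in microphylls and 337 in stems, against 14.5 in shoot tips and 97.6 (67.1 to 128) in rhizophore tips. The tip that was low in one of these loci was thus the higher tip in the other.

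Within the bound set by the rule, the microphyll was the higher of its pair in 267 members (55.7%), against 48.0% of all loci of at least 300 bp. The latter include loci listed in neither tissue, which have no order. The share of the members moved with the setting. It was 917 of 1318 in TPM and 213 of 432 in TPM over loci of at least 300 bp. In FPKM it was 138 of 264 at a level of at least 10 and 45 of 90 at a difference of 2. The intervals of microphyll and stem overlapped in 256 members (53.4%, against 31.0% of all loci), the microphyll lay above the stem in 119 (24.8%, against 36.4%), and it lay below in 104 (21.7%, against 32.6%). In 166 members the values were within 0.25 of each other (34.7%, against 23.1%). The rule bounds this difference and so favours such loci and overlapping intervals. Nothing is read from the shares of order, overlap or closeness. At the microphyll edge of the bound, locus 041407 (12 to 1589) had 59.6 in microphylls and 29.4 in stems, against 11.8 in shoot tips and 5.49 in rhizophore tips. Locus 066328 (610 to 3477), next to it, had 18.2 in microphylls and 8.65 in stems, against 3.19 in shoot tips and 1.60 (0 to 4.36) in rhizophore tips. At the stem edge, locus 041368 (218 to 5356) had 124 in microphylls and 249 in stems, against 51.7 in shoot tips and 61.2 in rhizophore tips. Locus 069845 (467 to 2476) was the other member at this edge, with 1.53 in microphylls and 3.97 in stems and no listing in the tips. Both tips were lowest in each of these loci, as the rule requires.

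**Figure D4:**
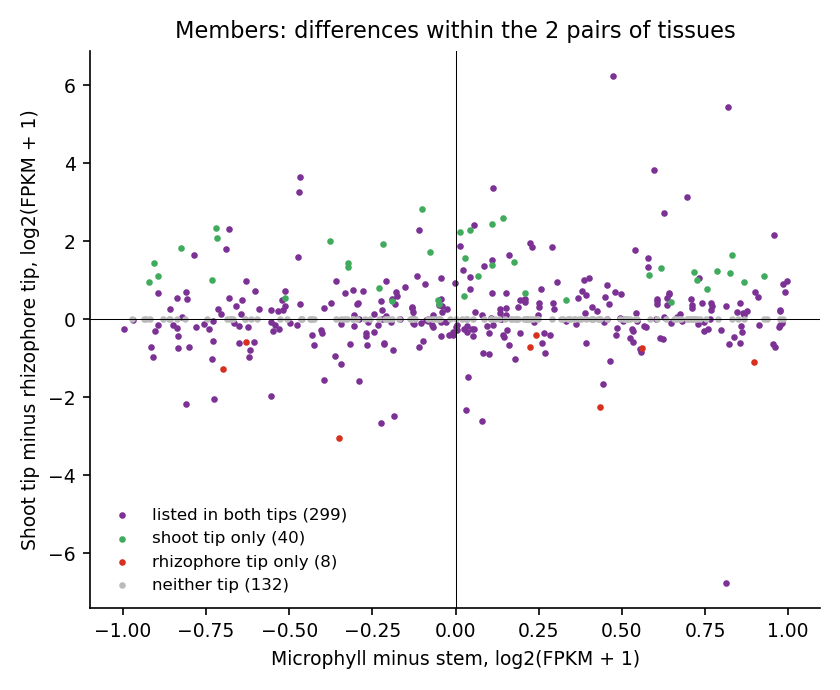
Microphyll minus stem (x axis) against shoot tip minus rhizophore tip (y axis), both as differences of log2(FPKM + 1), for the 479 members, coloured by the tips in which they were listed. The rule bounds the x axis at 1 on either side and leaves the y axis free, where 055299 lies at 6.23 and 105017, with its unequal spans, at -6.75.

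The members had a median merged length of 787 bp, against 1014 bp for all loci of at least 300 bp. Loci from 300 to under 600 bp were members in 2.54% of cases, those from 600 to under 1200 bp in 1.53%, those from 1200 to under 2400 bp in 1.499%, and those from 2400 bp in 1.65%. The share was thus highest in the shortest class, where 94 of its 190 members were listed in neither tip. The longest members spanned over 11 kb. Locus 071562 (1 to 11443) had 48.0 in microphylls and 63.8 in stems, against 8.47 in shoot tips and 11.1 in rhizophore tips, and each library covered at least 11295 bp of it. Locus 070362 (402 to 12216) had 138 (134 to 142) in stems, against 53.9 in shoot tips and 40.3 in rhizophore tips, while the lower bound of its microphyll value, 235, was 0. A lower bound of 0 in microphylls or stems was found in 7 members (1.46%), against 26.4% of all loci of at least 300 bp. The latter share includes loci not listed in one of these tissues, which the rule leaves out, so nothing is read from it.

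Covered spans differed between libraries in part of the members. Among loci listed in all 4 libraries, the longest span was over 1.5 times the shortest in 26.1% of the members and 17.6% of all loci of at least 300 bp, members included, a difference that was not tested. The median share of the merged span covered was 97.0% in microphylls and 93.7% in stems, against 94.7% in shoot tips and 94.2% in rhizophore tips, for these members. The part of the spans in the level differences was not tested beyond the number of members given above.

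The members lay on 473 contigs, and 354 (73.9%) were the only locus of their contig, against 72.6% of all loci of at least 300 bp. In the other 125, the nearest locus was a median of 279 bp away, against 335 bp for all such loci. In 108 the nearest locus was at least 300 bp long and reached an FPKM of 1 in a library. Of these neighbours 12 (11.1%) were members too, against 1.94% of the neighbours of all such loci. The mirrored rule (tips above microphyll and stem) took 5 of the 108, against 239 of the 6020 neighbours of all such loci. The median difference of the 108 was -0.62, against -0.84 for the neighbours of all loci. Most neighbours of members were thus not raised in microphyll and stem, and the 12 form 6 pairs counted from both sides.

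On contig 058286 the rhizophore tip was the higher in both loci of the pair, with intervals apart. There, locus 2 to 1628 had 75.6 in microphylls and 86.0 in stems, against 2.28 in shoot tips and 17.2 in rhizophore tips, and locus 1743 to 3652, after a gap of 114 bp, had 336 in microphylls and 329 in stems, against 19.1 in shoot tips and 100.5 in rhizophore tips. On contig 055299, locus 1 to 310, a gap of 365 bp from the one above, had 17.8 in microphylls and 19.1 in stems, against 6.14 in shoot tips and no listing in rhizophore tips. There 11 fragments would equal 8.70 in rhizophore tips, so the order of the tips was not detectable, and with this floor the difference was 0.95, under the limit of the rule. On contig 042601 the order differed, since locus 22 to 6097 had 126 in microphylls and 119 in stems, against 6.80 in shoot tips and 46.6 in rhizophore tips, while its neighbour at 6211 was higher in shoot tips. On contig 047747 the tip intervals overlapped in both loci. The pair on contig 102922 had 80.5 in microphylls and 97.03 in stems, against 21.7 in shoot tips and 34.8 in rhizophore tips, at 3349 to 6356, and 29.2 in microphylls and 29.04 in stems, against 10.03 in shoot tips and 11.2 in rhizophore tips, at 6936 to 7962, and its tip intervals lay apart in the first of these loci and overlapped in the second. On contig 083019 one locus of the pair was higher in shoot tips and the other was listed in neither tip. The tables give no strand, so whether the loci of a pair belong to 1 transcript was not tested.

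The same rule was applied to each of the 6 pairs of tissues. It gave 479 loci for microphyll and stem, 514 for microphyll and shoot tip, 198 for microphyll and rhizophore tip, 180 for stem and shoot tip, 443 for stem and rhizophore tip, and 898 for both tips. These numbers share the same 4 libraries and were not tested against each other, and under TPM the order of the first and the last is the reverse, as given above. The rule chose on the difference between the pairs and asked for at least 1. A difference of 2 was reached by 90 members (18.8%) and 295 loci raised in both tips (32.9%). One of 3 was reached by 15 members (3.13%) and 122 loci raised in both tips (13.6%). These and the next shares are in FPKM, were not computed under TPM, and carry no test. The share listed in neither of the lower libraries was 27.6% of the members and 29.0% of the loci raised in the tips. An FPKM of 100 in some library was reached by 108 members (22.5%) and 141 loci raised in the tips (15.7%). Loci under 600 bp made up 39.7% of the members and 31.7% of the loci raised in the tips.

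**Figure D5:**
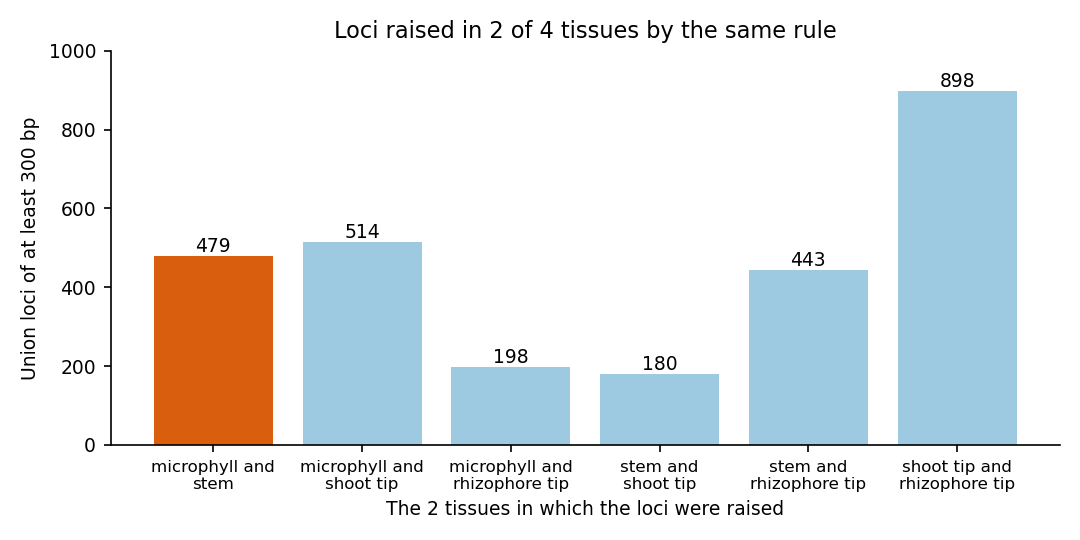
Number of union loci of at least 300 bp raised in each of the 6 pairs of tissues by the same rule in FPKM, with microphyll and stem in orange. The bars range from 180 loci for stem and shoot tip to 898 for shoot tip and rhizophore tip, with 479 for microphyll and stem.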

How the data were processed

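The authors cut 10 bases from the start of the paired reads, aligned these with TopHat to contigs assembled with ABySS, and quantified transcripts with Cufflinks, 1 library per tissue. The deposited tables give FPKM with 2 bounds per locus, and neither counts, gene names, strands nor sequences. Start positions count from 0 there, and 1 was added. Loci were merged, summed and selected with Python 3.11.15, numpy 2.4.6 and pandas 2.3.3. Bounds of merged loci combine the upper half-widths as the root of the sum of squares. Fragments were taken as the square of 2 FPKM over the upper half-width, which understates loci of several transcripts. Library totals came from a line of fragments per FPKM on length, through the highest locus of each 50 bp bin. The floor of 11 fragments used the shorter effective length of microphyll and stem.

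The loci named were the 6 highest members, the 6 with the largest difference, the 4 listed in neither tip with the most fragments, the 2 at each edge of balance and threshold, the 2 longest, and the members of 3 contigs that hold 2. Exceptions are marked. Members, lists and rules were chosen with earlier results of these data known. The merging was checked on a made-up case. The rule was tested on simulated data with counting error only, for loci present in every library and raised far above its limit. Loci missing from a library, the shortest loci and unequal spans were not simulated, so the test does not cover such members. There were 13 alternatives, and 3 more were added after seeing the data.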

Additional observations from a re-analysis of the deposited data

Results flagged for a closer look

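Union loci shorter than 300 bp, 5155 in all, were not described above. Of these, 133 (2.58%) met the rest of the rule, and they are given because no comparison above used them. The mirrored rule took 204 of the short loci (3.96%), so the count was higher for both tips. Neither tip listed 90 of the 133, and in 125 the intervals of microphyll and stem lay above those of both tips. The lower of their microphyll and stem values had a median FPKM of 22.8, and the median number of fragments was 23.7 in microphylls and 15.7 in stems.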

How the results depend on the processing

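The rule gave 479 members and 898 loci raised in both tips. In the same order, it gave 235 and 493 with a pseudocount of 5, 1318 and 185 in TPM, 264 and 509 at an FPKM of 10 or more in the raised tissues, 90 and 295 at a difference of 2 or more, and 299 and 496 among loci listed in all 4 libraries. The members numbered 289 at a length of at least 600 bp, 272 with a balance within 0.5, 307 with at most 1 locus per library, and 310 with at least 300 bp covered in each listing library, intervals apart and the floor of 11 fragments together, the last chosen after seeing the data. The TPM set held 330 of the 479 members. TPM divides by the summed FPKM, 3.86e+06 in microphylls and 3.39e+06 in stems, against 6.68e+06 in shoot tips and 7.98e+06 in rhizophore tips. It thus raises microphyll and stem against the tips. Over loci of at least 300 bp the sums were close, from 1.11e+06 in microphylls to 1.20e+06 in stems. The gap between the full sums thus lay in loci under 300 bp, and why these differed was not tested. Under the other alternatives, such as median-of-ratios factors (552 and 823), both numbers stayed within 1.5 times. The log2 differences of the 28 named loci kept their sign under both pseudocounts and both scalings. This is no support, since the loci were picked near or above a difference of 1 and a pseudocount cannot reverse an order. Some fell below the limit of 1. At a pseudocount of 5 the difference was 0.36 in 063296 and 0.39 in 069845, and in TPM it was 0.54 in 063296 and 0.48 in 069845. No paired analysis was possible because there was 1 library per tissue, and no replicate could be omitted. The listing floor limits the members listed in neither tip, of which 21 of 132 met the rule with the floor.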

Other observations

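The balance condition kept 180 loci out of the members, 87 with a higher microphyll and 93 with a higher stem. Some of these had larger differences than any member. Locus 067981 (1606 to 2340) had an FPKM of 11044 in microphylls and 55085 in stems, against 0.974 in shoot tips and no listing in rhizophore tips, a difference of 12.45 on the log2(FPKM + 1) scale. Locus 044188 (1 to 404) had 22324 in microphylls and 7979 in stems, against 1.27 in shoot tips and 1.36 in rhizophore tips, a difference of 11.72. The highest difference of a member was 5.19. Both loci were chosen after their values were seen, as the highest of their direction.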
